A study of Mus musculus with 4 samples.

Results

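The TCF/LEF factors and the partners of beta-catenin were described on 4 Affymetrix arrays hybridised with RNA of mouse colon adenoma organoids, tumour epithelium grown in 3D culture. The members were the probe sets annotated to Lef1, Tcf7, Tcf7l1, Tcf7l2, Ctnnb1, Bcl9, Bcl9l, Pygo2, Tle1 and Sp5. Of these 10 genes, 9 had a probe set in the annotation used, 18 probe sets in all among 45037 without controls, and 9 of 17097 named genes. Tcf7 was matched to no probe set there, so its expression was not analysed here. A group of 2 arrays was labelled Gata6 null/Apc null, with the genotype VillinCreERT2Gata6fl/flApcfl/fl per the design text. The other group of 2 was labelled Apc null, with the genotype VillinCreERT2Gata6+/+Apcfl/fl. Both groups thus lacked Apc per the labels, and differed in Gata6, which encodes a zinc finger factor that specifies endoderm and gut epithelium. The Villin promoter drives the tamoxifen-dependent Cre recombinase in intestinal epithelium, and no Apc wild-type culture was part of the comparison. The background was C57BL/6, and all cultures were grown for 7 days with EGF at 50 ng/ml. Each group had 1 array labelled batch A and 1 labelled batch B. The labels do not say whether the cultures came from separate mice, so p-values measure the spread between these arrays. The sources used here do not give the ages of the mice.

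In the canonical Wnt pathway, a destruction complex built on APC and AXIN marks beta-catenin for degradation. Without APC, beta-catenin accumulates and enters the nucleus. There it binds the HMG-box proteins TCF7, LEF1, TCF7L1 and TCF7L2, which carry it to DNA. BCL9 and BCL9L bridge beta-catenin to the PHD finger protein PYGO2, a reader of methylated histone H3, and together they help to activate transcription. Without beta-catenin, TCF proteins hold corepressors of the Groucho family such as TLE1. In mouse intestine TCF7L2 is the TCF needed to maintain crypt stem cells. LEF1 and SP5 are at once regulators and products of the pathway, since both genes are transcribed in response to Wnt signals in several vertebrate tissues.

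The promoter windows of the members that differed most between the groups, Lef1 and Sp5, are shown with 1 of Tcf7l2, which differed little. They come from RefSeq on the mouse GRCm38.p6 assembly and run from 250 bases before to 50 bases after an annotated start. Capitals mark matches to CTTTGA, a form of the core letters bound by TCF/LEF proteins, called the TCF/LEF core here. They also mark AGATAA, core letters bound by GATA proteins. Both strands were searched, so that the reverse complements TCAAAG and TTATCT are marked too. Related forms such as CTTTGT were not searched. No matches to different motifs overlapped in these windows. The Sp5 window lies on the plus strand at chr2:70474673-70474972. The Lef1 windows lie on the plus strand at chr3:131110047-131110346, the first of its 4 annotated starts, and at chr3:131156044-131156343, the last. The Tcf7l2 window, at its first annotated start, lies on the plus strand at chr19:55741560-55741859.
Sp5: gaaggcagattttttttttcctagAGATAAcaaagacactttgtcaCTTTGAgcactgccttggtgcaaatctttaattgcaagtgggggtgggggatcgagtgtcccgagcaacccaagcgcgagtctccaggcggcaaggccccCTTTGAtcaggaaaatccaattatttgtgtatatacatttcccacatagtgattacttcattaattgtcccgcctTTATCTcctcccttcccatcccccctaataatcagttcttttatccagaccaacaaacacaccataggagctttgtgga
Lef1, first start: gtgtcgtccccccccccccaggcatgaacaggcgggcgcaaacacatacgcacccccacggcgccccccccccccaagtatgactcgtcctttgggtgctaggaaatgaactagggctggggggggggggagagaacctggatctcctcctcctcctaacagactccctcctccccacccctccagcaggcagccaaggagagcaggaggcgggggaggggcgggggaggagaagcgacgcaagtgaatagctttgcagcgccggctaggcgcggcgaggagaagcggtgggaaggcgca
Lef1, last start: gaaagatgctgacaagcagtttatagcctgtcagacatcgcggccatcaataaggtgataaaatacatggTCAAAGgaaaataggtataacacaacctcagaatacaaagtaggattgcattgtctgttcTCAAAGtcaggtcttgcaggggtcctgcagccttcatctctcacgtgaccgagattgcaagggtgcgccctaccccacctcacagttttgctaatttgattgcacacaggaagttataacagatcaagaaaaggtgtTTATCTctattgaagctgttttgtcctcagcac
Tcf7l2, first start: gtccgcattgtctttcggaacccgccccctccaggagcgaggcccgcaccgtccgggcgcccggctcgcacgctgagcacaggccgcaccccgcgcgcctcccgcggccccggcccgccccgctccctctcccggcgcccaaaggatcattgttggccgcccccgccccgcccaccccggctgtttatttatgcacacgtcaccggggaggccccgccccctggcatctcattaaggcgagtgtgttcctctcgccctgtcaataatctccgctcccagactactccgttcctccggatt

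The Sp5 window held 2 TCF/LEF cores, whose leftmost letters lay 204 and 104 bases before the start. It also held 2 GATA cores, 226 and 29 bases before the start. The window of the last Lef1 start, 46.0 kb downstream of the first, held 2 TCF/LEF cores at 180 and 120 bases before it and 1 GATA core 17 bases after it. The windows of the other 3 Lef1 starts held neither. RefSeq windows were found for 9 of the 10 genes, Tcf7 among them, and Bcl9l was the gene without one. Of their 17 windows, 2 held a TCF/LEF core, those of Sp5 and of the last Lef1 start, and 3 held a GATA core, the same 2 and 1 of Tcf7l2. Windows of the same gene can overlap. Among all 32851 windows of this length, 16.0% held a TCF/LEF core and 11.2% a GATA core. The related letters CTTTGT, which were not searched or marked, also occur in windows of members that differed little, Tcf7l1 and 1 of Tcf7l2. They occur in those of Sp5 and the last Lef1 start too, so the counts hold for CTTTGA only. These matches describe letters and are not binding sites. The array values do not show which start was used.

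**Figure D1:**
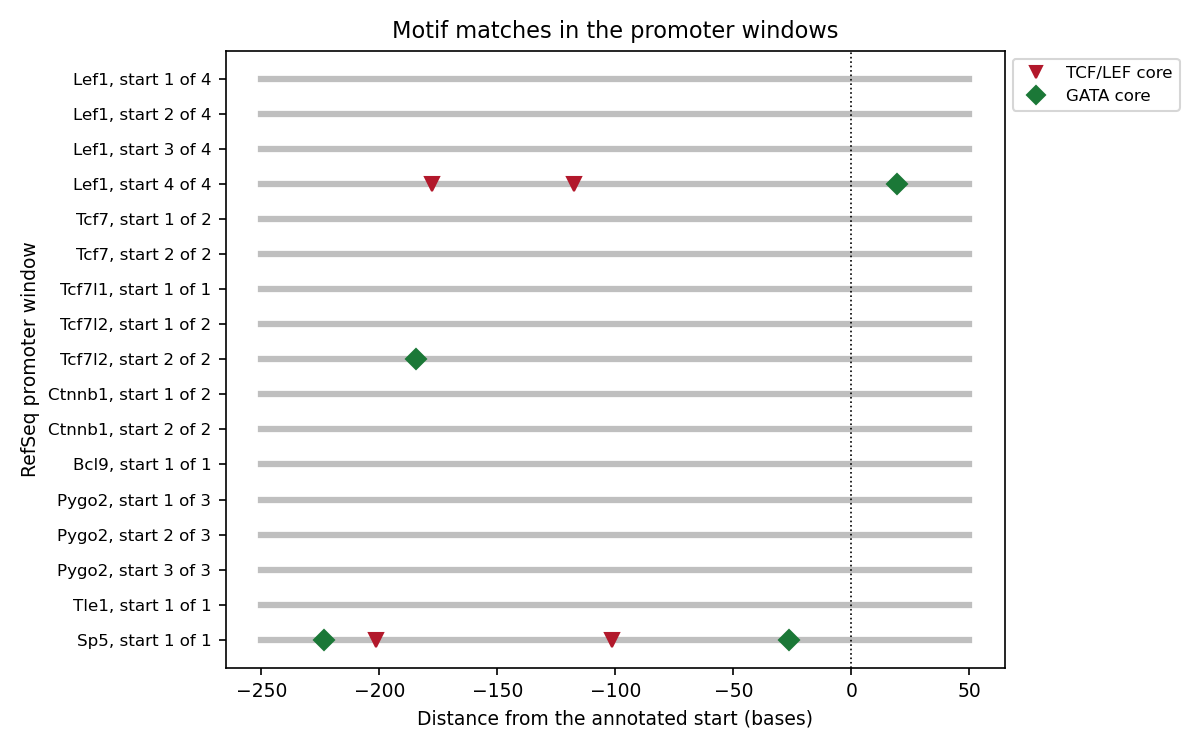
Matches to the TCF/LEF core (triangles) and the GATA core (diamonds) in the 17 RefSeq promoter windows of 9 genes, plotted by distance in bases from the annotated start (dotted line). TCF/LEF cores of the form CTTTGA, the only form searched, appear in the Sp5 window and in that of the last of 4 Lef1 starts, 2 in each.

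The values are log2 expression made by the authors with RMA, which normalizes arrays to a common distribution and compresses dim values towards a floor. Array medians ran from 4.91 to 5.04 log2 units. Across probe sets, the batch A arrays correlated at 0.979 and the batch B arrays at 0.978. The arrays labelled Gata6 null/Apc null correlated at 0.976 and those labelled Apc null at 0.975. Gata6 read 9.37 and 9.40 at its brighter probe set on the arrays labelled Gata6 null/Apc null, against 8.89 and 8.61 on the arrays labelled Apc null, and so was higher on the arrays labelled null. The Gata6 difference was 0.64 (limma adjusted p over all probe sets = 0.737, and 0.0410 with the batch as a block). Its other probe set differed by 0.42 and passed in neither fit. Where its probes lie relative to the deleted exons is not known here, so Gata6 does not check the labels, and every direction below rests on the labels alone. The brightest Apc probe set read 8.34 and 8.14 against 8.35 and 8.34. All 11 intestinal epithelium markers lay above the level under which genes were left out, 4.45 log2 units, the 40th percentile of probe set means. Epcam, the epithelial adhesion molecule, read 11.29 to 11.53 over the 4 arrays. The summed linear level of these markers was 18379 and 17872 on the arrays labelled Gata6 null/Apc null, against 21205 and 20289 on those labelled Apc null. All 11 differences were below 0, with a median of -0.23, where 44.5% of all probe sets were above 0. Of the 11, 1 passed the threshold over all probe sets with the batch as a block, where 3.24% of all did.

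Lef1, the lymphoid enhancer factor, had the largest difference of the 9 genes and was called higher. Its single probe set read 8.18 and 8.39 for batches A and B on the arrays labelled Gata6 null/Apc null, against 3.82 and 4.17 on the arrays labelled Apc null. The groups were far apart, and both Apc null arrays lay under the filter level, so Lef1 passed the filter only through the group where it was high. It averaged 8.28 ± 0.15 against 3.99 ± 0.24 (SD, n = 2 arrays each), a log2 difference of 4.29 (SE 0.25, 95% interval 3.65 to 4.93, limma adjusted p = 0.0137). That is a 19.5-fold difference, whose size depends on the array floor. The difference was 4.35 within batch A and 4.22 within batch B. Lef1 passed the threshold with the batch as a block and whichever array was left out, with limma adjusted p-values of 0.0091 to 0.0436 without 1 array. In bulk samples, fewer cells of a type and less RNA per cell cannot be told apart.

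Sp5, a zinc finger factor of the Sp family, had the next largest difference. It read 9.02 and 9.73 on the arrays labelled Gata6 null/Apc null, against 5.99 and 6.51 on those labelled Apc null. Each group was 0.5 log2 units or more higher in batch B, yet the groups did not overlap. Sp5 averaged 9.38 ± 0.50 against 6.25 ± 0.37 (SD, n = 2 arrays each), a log2 difference of 3.13 (SE 0.36, 95% interval 2.20 to 4.05), or 8.74-fold. It missed the threshold (limma adjusted p = 0.0553) and passed it with the batch as a block (limma adjusted p = 0.000381, SE 0.15), where the spread shared by a batch is taken out. The difference was 3.04 within batch A and 3.22 within batch B. Sp5 also passed without the batch A array labelled Gata6 null/Apc null (limma adjusted p = 0.0425) and with either rescaling of the arrays. Without any other single array its adjusted p was 0.0790 to 0.121.

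Of the 9 members tested, 1, Lef1, was called higher and none lower in limma, where 0.522% of all 11874 genes tested were called higher and 0.126% lower. With the batch as a block, 2 of 9 members were called higher, Lef1 and Sp5, and none lower. The shares of all genes were then 3.91% higher and 2.97% lower. At an unadjusted limma p under 0.05, 2 members were higher and none lower, and 4.41% of genes were higher and 3.55% lower. The groups did not overlap for 6 of 9 members, all of them higher on the arrays labelled Gata6 null/Apc null, against 14.7% of all genes higher and 17.3% lower without overlap. These 6 were Lef1, Sp5, Ctnnb1, Bcl9, Bcl9l and Pygo2. Of these, the differences of the last 4 passed no threshold after adjustment. The count takes the brightest probe set of each gene. For Ctnnb1, Bcl9 and Bcl9l, the groups overlapped at 1 or more of their other probe sets. The median difference over the 9 members was 0.28 log2 units, against -0.03 over all genes tested.

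**Figure D2:**
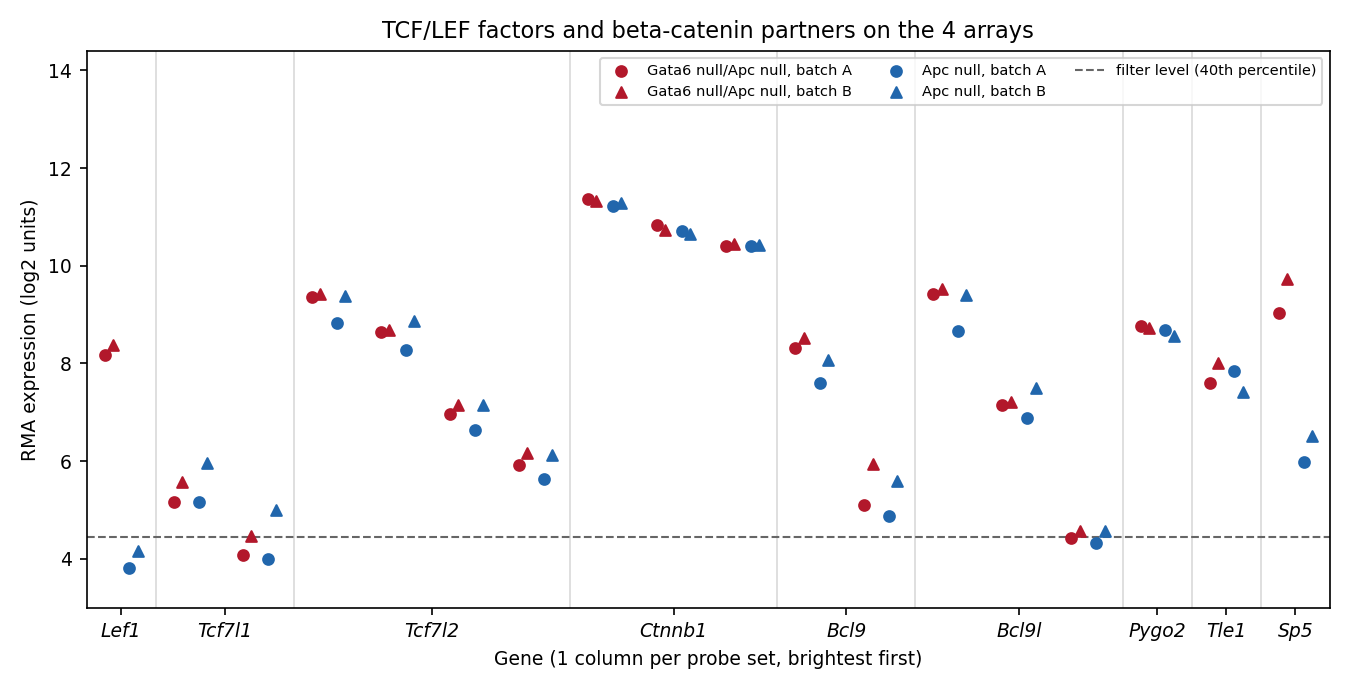
RMA expression in log2 units (vertical axis) of all 18 probe sets of the 9 genes, 1 column per probe set, with red for Gata6 null/Apc null, blue for Apc null, circles for batch A and triangles for batch B. Lef1 and Sp5 separate by colour by more than 2 log2 units, while the 4 points of each other probe set lie within about 1 log2 unit of each other.

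Among the other TCF factors, Tcf7l2, the main TCF of the intestinal epithelium, showed no difference past the threshold. Its brightest probe set read 9.37 and 9.42 on the arrays labelled Gata6 null/Apc null, against 8.83 and 9.39 on those labelled Apc null. The batch A array labelled Apc null was low, and the other 3 arrays lay within 0.05 log2 units. The difference was 0.28 (SE 0.24, 95% interval -0.34 to 0.91, limma adjusted p = 1.00), with 0.54 within batch A and 0.03 within batch B. With the block the interval was -0.08 to 0.65. A 2-fold change of this probe set, 1 on the log2 scale, lay outside both intervals. The 4 Tcf7l2 probe sets gave differences of 0.09 to 0.28, and on each of them the batch A array labelled Apc null was the lowest.

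Tcf7l1, which in mouse embryonic stem cells acts mostly as a repressor, was dim. Its brighter probe set read 5.17 and 5.58 on the arrays labelled Gata6 null/Apc null, against 5.16 and 5.97 on those labelled Apc null. The groups overlapped, and batch B was higher in both. The difference was -0.19 (SE 0.34, 95% interval -1.07 to 0.70, limma adjusted p = 1.00), with 0.01 within batch A and -0.39 within batch B. Its other probe set had a mean under the filter level and differed by -0.23. The interval of the brighter probe set included 0, so the arrays do not settle the direction of this gene. A 2-fold decrease also lay inside it. With the block the interval was -0.65 to 0.27.

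Ctnnb1, which encodes beta-catenin itself, had nearly the same level on all 4 arrays. Its brightest probe set read 11.37 and 11.32 on the arrays labelled Gata6 null/Apc null, against 11.22 and 11.29 on those labelled Apc null. The groups did not overlap, but the difference was 0.10 (SE 0.08, limma adjusted p = 1.00), with a 95% interval of -0.12 to 0.32. The other 2 probe sets differed by 0.01 and 0.10. Of the members, Ctnnb1 had the narrowest interval of the difference. Beta-catenin is controlled mainly through the stability of the protein, which these RNA values do not measure.

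Bcl9, the adaptor between beta-catenin and the Pygopus proteins, had the largest difference of the coactivators. Its brighter probe set read 8.32 and 8.53 on the arrays labelled Gata6 null/Apc null, against 7.60 and 8.08 on those labelled Apc null. The groups did not overlap, and the difference was 0.58 (SE 0.26, limma adjusted p = 0.765), with 0.71 within batch A and 0.45 within batch B. It missed the threshold also with the block (limma adjusted p = 0.0827), although the unadjusted blocked interval, 0.22 to 0.94, lay above 0. The dimmer Bcl9 probe set read 5.11 and 5.93 against 4.88 and 5.59. There the groups overlapped and the difference was 0.29.

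Bcl9l, the paralogue of Bcl9, gave unlike results at its 3 probe sets. The brightest read 9.43 and 9.52 on the arrays labelled Gata6 null/Apc null, against 8.67 and 9.39 on those labelled Apc null, a difference of 0.44 (SE 0.28, limma adjusted p = 0.980, and 0.211 with the block). The unadjusted interval was -0.29 to 1.18, and 0.04 to 0.85 with the block. The difference was larger in batch A, with 0.76 there and 0.13 within batch B. The next probe set read 7.14 and 7.21 against 6.88 and 7.50 and differed by -0.01. The third, near the filter level, differed by 0.05.

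Pygo2, the PHD finger protein of the complex, read 8.78 and 8.73 on the arrays labelled Gata6 null/Apc null, against 8.69 and 8.56 on those labelled Apc null. The groups were separate by a small step, with a difference of 0.13 (SE 0.19, 95% interval -0.36 to 0.62, limma adjusted p = 1.00). Tle1, the Groucho corepressor, read 7.59 and 8.00 against 7.85 and 7.41. Here the sign turned between batches, with -0.26 within batch A and 0.60 within batch B. The mean difference of Tle1 was 0.17 (SE 0.29, 95% interval -0.59 to 0.93, limma adjusted p = 1.00), and the difference between batches was not tested, since each batch holds 1 array of each genotype.

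**Figure D3:**
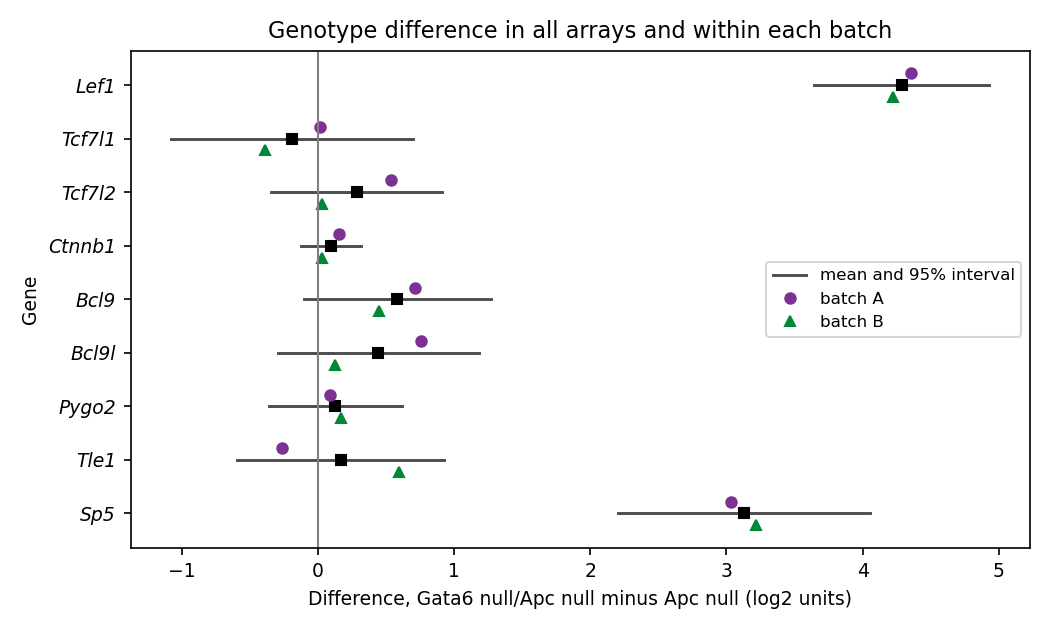
Difference between the groups in log2 units (horizontal axis, Gata6 null/Apc null minus Apc null) for the 9 genes, with black squares for the mean, lines for its 95% interval in limma without the block, circles for batch A and triangles for batch B. The intervals of Lef1 (3.65 to 4.93) and Sp5 (2.20 to 4.05) lie away from 0, and those of the other 7 genes include it; with the block, which is not drawn, those of Bcl9 and Bcl9l also lie above 0.

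The batch A array labelled Apc null was often the lowest for the members, whatever the size or sign of their differences. It was the lowest of the 4 arrays for 14 of the 18 member probe sets, against 21.0% of all probe sets. Among these 14 were the probe sets of Lef1 and Sp5, and both Tcf7l1 probe sets, which had differences below 0. Probe sets of a gene share their RNA and are not independent. Of the 18 probe sets, 15 had a difference above 0 and 3 below, where 44.5% of all probe sets were above 0. Batch B was above batch A for 15 of 18 member probe sets in each genotype. Over all probe sets these shares were 41.7% in Gata6 null/Apc null and 45.9% in Apc null. The batch difference (B minus A) of Tcf7l2 was 0.03 to 0.24 over its probe sets on the arrays labelled Gata6 null/Apc null, against 0.48 to 0.60 on those labelled Apc null. That of Tcf7l1 was 0.40 to 0.41 against 0.81 to 1.00. The part of batch in the differences of Bcl9, Bcl9l and Tcf7l2 was not tested beyond the blocked fit. Without the batch A array labelled Apc null, Lef1 differed by 4.12 and Sp5 by 2.87.

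Lef1 is also abundant in T lymphocytes and in mesenchyme, so markers of those cells were read. T lymphocyte markers had a probe set for 11 of 14 genes, of which 4 lay above the filter level. Their summed linear level was 229 and 205 on the arrays labelled Gata6 null/Apc null, against 221 and 215 on those labelled Apc null. The 4 above it were Cd3d at 4.97 to 5.33, Cd4 at 4.88 to 5.05, Cd8a at 4.71 to 4.84 and Themis at 4.50 to 4.68. Among the others, Cd3e, of the T cell receptor complex, read 3.36 to 3.60. Ptprc, the pan-leukocyte phosphatase, read 3.07 to 3.25, and both were under the filter level on every array. Fibroblast markers had 2 of 8 genes above the filter level, with sums of 139 and 134 against 140 and 141. Vim, an intermediate filament gene of mesenchyme, is in none of these lists and was higher on the arrays labelled Gata6 null/Apc null. It read 8.74 and 9.20 against 4.81 and 4.87, a difference of 4.13 (limma adjusted p = 0.0157). The endothelial markers summed to 143 and 125 against 141 and 128. None of the markers in these 3 lists passed the limma threshold over all probe sets, with or without the block, where 0.129% of probe sets passed without it and 3.24% with it. Of the 8 myeloid markers, 5 lay above the filter level and 6 had a difference below 0, with a median of -0.11. Below 0 were also 7 of 11 T lymphocyte, 5 of 8 fibroblast and 4 of 6 endothelial markers. Of all probe sets, 44.5% were above 0. The myeloid markers summed to 281 and 406 against 1625 and 2690, and on the Apc null arrays the sum was led by Lyz2. This lysozyme gene read 6.51 and 6.16 against 10.36 and 11.14 and passed the threshold as lower, with a difference of -4.41. Cd68, a lysosomal protein of macrophages, read 4.94 and 7.23 against 5.92 and 7.57. Cd14, a lipopolysaccharide coreceptor, read 6.06 and 6.66 against 7.36 and 7.28, a difference of -0.96 that did not pass. Csf1r, the macrophage growth factor receptor, read 4.58 to 4.73. Adgre1 read 3.69 to 3.90 and Tyrobp 3.66 to 3.92, both under the filter level on every array. Cdx2, the intestinal homeobox factor, was the epithelial marker past the threshold with the block, with a difference of -1.57. Whether a change in cell types has a part in the Lef1 and Sp5 differences was not tested.

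Counts in the following lists of pathway genes stand against the shares of all genes given above, 0.522% higher and 0.126% lower without the block and 3.91% and 2.97% with it. In lists this short, counts of 0 or 1 do not set a list apart from those shares. Of 16 genes of the destruction complex and beta-catenin turnover, all 16 were tested and none passed in limma, with or without the block, while 1 was higher at an unadjusted p under 0.05 without the block. Their median difference was 0.06. The smallest p-values belonged to Csnk1e, a casein kinase of the pathway, with 0.58 (SE 0.20, limma adjusted p = 0.535), and Siah1a, a ubiquitin ligase, with 0.64 (SE 0.30, limma adjusted p = 0.784). Of 16 other coactivators of beta-catenin, 12 were tested and none passed in limma without the block, at an unadjusted p under 0.05 either, with a median of -0.08. With the block 1 passed, Parp1, a DNA-repair enzyme that also binds TCF7L2 in human cells, with 0.56 (limma adjusted p = 0.0428 with the block).

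Of 17 other corepressors and nuclear inhibitors of TCF, 15 were tested, with a median of 0.22, and none passed in limma without the block, while 1 was higher and 1 lower at an unadjusted p under 0.05. With the block 1 was higher and 1 lower. Nlk, a kinase that phosphorylates TCF/LEF proteins and lowers their DNA binding, was higher. It read 9.49 and 9.47 on the arrays labelled Gata6 null/Apc null, against 8.14 and 7.80 on those labelled Apc null, a difference of 1.51 (SE 0.21, limma adjusted p = 0.0884, and 0.00309 with the block). Ruvbl2, an ATPase that binds beta-catenin and opposes its activity in zebrafish, was lower with a difference of -0.42 (limma adjusted p = 0.0296 with the block).

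Of 15 genes of the adherens junction, where beta-catenin links cadherins to the cytoskeleton, 12 were tested, with a median of -0.19, and 2 were above 0, where 44.1% of all genes tested were. None passed in limma without the block, 1 was higher and 2 lower at an unadjusted p under 0.05, and with it 1 was higher and 2 were lower. The nectin adhesion molecule gene Nectin3 read 9.01 and 9.17 on the arrays labelled Gata6 null/Apc null, against 10.25 and 10.36 on those labelled Apc null, a difference of -1.21 (limma adjusted p = 0.0691, and 0.00172 with the block). Nectin1 differed by -1.38 (limma adjusted p = 0.138, and 0.00765 with the block). Ctnnd2, a catenin of the p120 family best known in neurons, read 6.36 and 4.78 against 3.66 and 3.44 and was higher with the block (limma adjusted p = 0.0179), with unlike values in its 2 arrays. Both Apc null values of Ctnnd2 lay under the filter level, so it passed the filter only through the group where it was high.

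Among 12 other Sp and Klf factors, 7 were tested, with a median of 0.14, and none passed in limma without the block, while 2 were higher and 1 lower at an unadjusted p under 0.05. Sp6, a relative of Sp5, read 6.72 and 7.04 on the arrays labelled Gata6 null/Apc null, against 4.99 and 5.89 on those labelled Apc null. Its difference was 1.44 (limma adjusted p = 0.329, and 0.0172 with the block). Klf6 was lower, by -0.62 (limma adjusted p = 0.284, and 0.0200 with the block). Of 27 TCF target genes of colon tumours other than the members, 25 were tested, with a median of 0.24. Of these, 5 were higher and none lower without the block, where 9 were higher and 3 lower at an unadjusted limma p under 0.05. With the block 9 were higher and 4 lower. The 5 were Apcdd1, Notum, Wif1 and Nkd1, which encode inhibitors of Wnt signalling, and the homeobox gene Prox1. Wif1 read 9.02 and 9.72 on the arrays labelled Gata6 null/Apc null, against 3.04 and 3.15 on those labelled Apc null, and so passed the filter only through the group where it was high. The 4 lower with the block were Lgr5, Jag1, Mmp7 and Myc. Lgr5, the R-spondin receptor of intestinal stem cells, read 6.39 and 7.55 against 9.16 and 9.72, a difference of -2.47 (limma adjusted p = 0.161, and 0.00142 with the block). The Notch ligand gene Jag1 differed by -1.17, the matrix protease gene Mmp7 by -0.78 and the growth regulator Myc by -0.59. This list was chosen with earlier results known and gives no independent evidence.

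**Figure D4:**
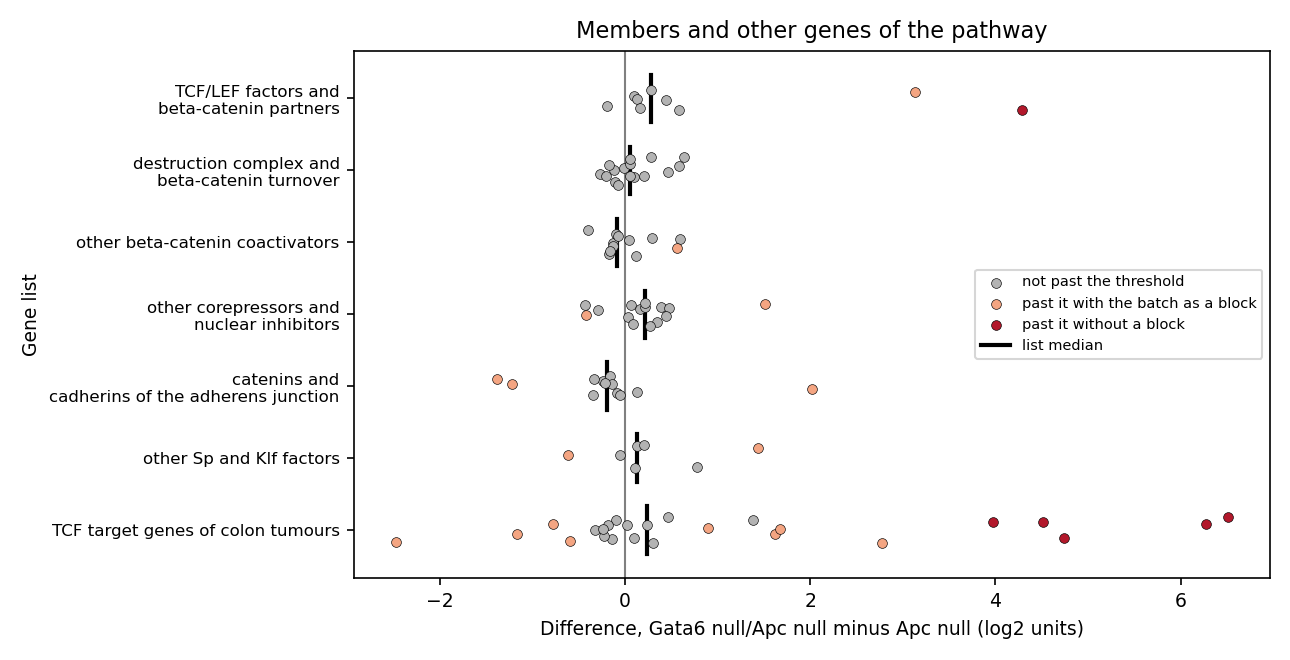
Difference between the groups in log2 units (horizontal axis) of each gene tested in the members and in 6 lists of pathway genes (rows). Dark red points passed the limma threshold without a block and light red points with the batch as a block, and black bars are list medians. The members Lef1 and Sp5 and several TCF targets lie to the right, the TCF target Lgr5 lies to the left at -2.47, and the destruction complex stays between -0.27 and 0.64.

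The genes with the most similar profiles were found by the root mean square distance between values centred on each gene's mean over the 4 arrays. Members and genes with predicted or clone-like names were left out of this search. For Lef1 the nearest were Erich3, a glutamate-rich protein gene, at 0.03 log2 units, then Vim, the intermediate filament vimentin, at 0.16 and Nkd1, a Dishevelled antagonist, at 0.17. Erich3 read 7.86 and 8.14 on the arrays labelled Gata6 null/Apc null, against 3.52 and 3.91 on those labelled Apc null. Like Lef1, it lay under the filter level on both Apc null arrays and passed the filter only through the group where it was high. For Sp5 the nearest were Tnni1, a troponin of slow muscle, at 0.11, the T-box factor gene Tbx3 at 0.12 and Cmtm8 at 0.14. Tbx3 read 8.16 and 8.89 against 4.85 and 5.57, and like Sp5 was higher in batch B in both groups. Lef1 and Sp5 were 0.61 apart, since Sp5 had the smaller step between genotypes and the larger steps between batches. With 4 arrays, such likeness is a description.

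**Figure D5:**
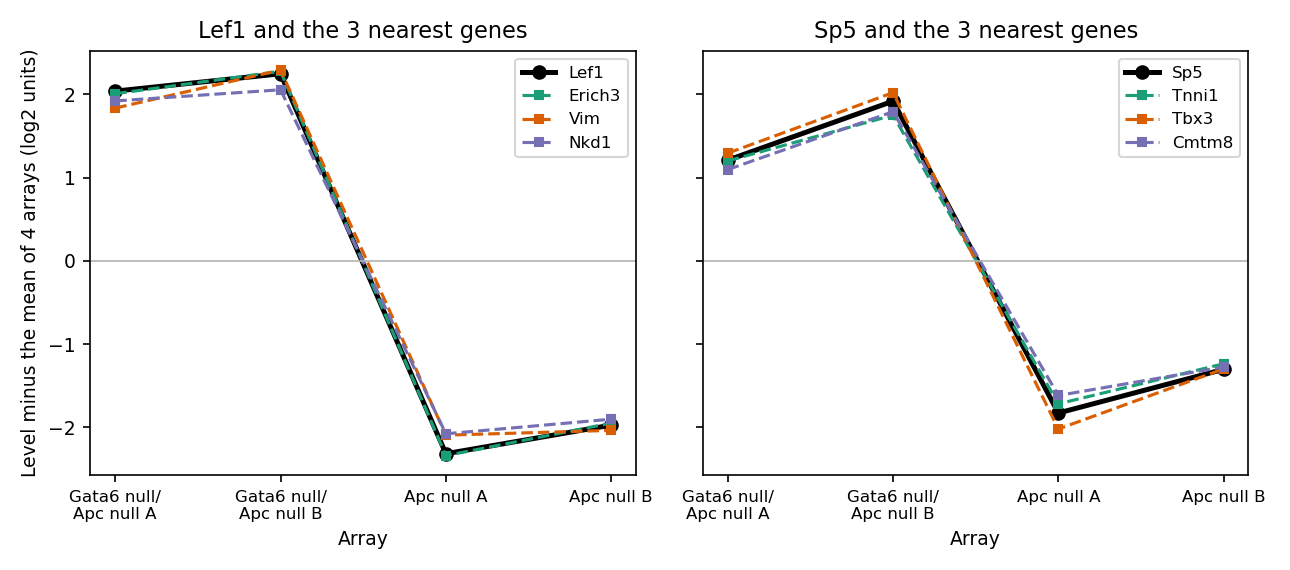
Levels minus the mean over the 4 arrays in log2 units (vertical axis) for Lef1 (left) and Sp5 (right) in black, each with its 3 nearest genes in colour; lines join the points of a gene and imply no order of the arrays. In each set the Gata6 null/Apc null arrays are high, the Apc null arrays are low, and the Sp5 set also steps up in batch B.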

How the data were processed

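Total RNA of 4 organoid cultures was amplified from a small input, labelled with biotin and hybridised to arrays, per the labels' protocols. The authors deposited RMA values on the log2 scale, 1 per probe set, computed with affy per the submitters' processing notes, which state no version. No detection calls were used. Precision is limited by the number of arrays. Of 45141 probe sets, 104 were controls and were dropped. The platform annotation paired 28898 probe sets with 1 gene; from the 551 with several genes no gene was named, and 15588 were unnamed. A comparison with RefSeq by Entrez identifier, possible for 28689 probe sets, changed 0 symbols.

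For each gene the probe set of highest mean was taken, and genes with a mean under 4.45 log2 units were left out, leaving 11874. The test was limma (version 3.58.1, R 4.3.3) with genotype as the only term and trended moderation, two-sided. The p-values were adjusted by Benjamini-Hochberg over the genes tested, and the threshold was 0.05. The fit had 2 residual degrees of freedom and 2.83 from the moderation. Intervals are those of this fit, unadjusted. A second limma fit over all 45037 probe sets gave the differences of further probe sets of a gene. The batch letter in the labels pairs the arrays; batch differences of the groups correlated at 0.675 across genes. The fit with this letter as a block had 1 residual degree of freedom and 4.99 from the moderation, and is given where it changes a call. On simulated data the fits recovered the size of known differences, as a linear fit does by design. The blocked fit made more false calls than its threshold allows, so calls that rest on the block alone are less firm. Data simulated for the fit without the block held no shift shared by a batch, so the fits were not compared on like data. Expression of Tcf7 is not reported here. The named genes were the members, Gata6 and Apc. To these came up to 4 genes of each pathway list past the threshold in either fit, or 2 with the smallest p. The 3 genes nearest in profile to each member with a difference of 1 or more were added, leaving out members and predicted or clone-like names. Prox1, Lgr5, Jag1, Mmp7, Myc, Cdx2 and the markers of other cell types were named outside these rules. The members, lists and tests were chosen with earlier results of these data known.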

Additional observations from a re-analysis of the deposited data

How the results depend on the processing

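The 77 genes called became 817 with the batch letter as a replicate block and 128 with arrays centred on their medians, and ranged from 33 (without the batch A array labelled Apc null) to 130 (without the batch A array labelled Gata6 null/Apc null) when 1 array was left out, with 48 without the batch B array labelled Apc null. The 1 member called, Lef1, became 2, with Sp5, under the replicate block, under centring and under repeated quantile normalization, and ranged from 1 to 2 without 1 array. Sp5 lay next to the threshold, with limma adjusted p-values of 0.0189 with centring and 0.0474 with repeated quantile normalization, and 0.0947 over all probe sets. The block changed no other call among the members. Lef1 kept its call under all 13 alternatives. Since it has 1 probe set, settings that change only the choice of probe set could not alter its values. The sign turned for Tcf7l1, which ranged from -0.59 to 0.22 without 1 array, and for Tle1, which ranged from -0.054 to 0.39. A lone array left in a group was assumed to vary like the other group. Tcf7l1 was not tested with the filter at the 60th percentile. The causes of these changes were not tested. With 2 arrays a group, a two-sided exact permutation test cannot go below p = 0.333.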
